A study of Ananas comosus with 48 samples.

Results

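The apices described here came from uninduced pineapple plants (Ananas comosus, cultivar MD1, also known as PRI 73-50) during the early days after an injection of water. They made up 9 of the 48 small RNA libraries of the study, 3 each from day 1, day 2 and day 3. They were chosen by treatment and sampling day in the labels, and no measured value was used. The plants grew in a commercial field and received 10 ml of water in the centre of the plant. This was the control for plants that received ethephon in the same volume of water, an ethylene source with which growers force flowering. All 9 libraries shared the water treatment, so day 1, day 2 and day 3 differed by the label only in time. Apices of these days were cut in the morning from plants sampled once, so no plant was followed from day to day. Each library held RNA from 3 apices, and young leaf primordia remained on the tissue that was taken as apex. No mature miR is a sure marker of a single cell type of this apex, so the makeup of the tissue was not checked. Fewer cells of a type and less of a miR per cell cannot be told apart in such libraries. Where p-values are given, they rest on the spread between pooled libraries of the same treatment and sampling, estimated over all 48 libraries of the study.

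Plant miRs are short RNAs that an ARGONAUTE protein carries to messenger RNAs of matching sequence, which are then cut or not translated. Many of the conserved families act on transcription factors that shape the shoot apex. The families miR160 and miR167 target auxin response factors, miR171 targets GRAS factors of the HAIRY MERISTEM type, miR396 targets growth regulating factors (GRF), miR319 targets TCP factors and miR172 targets AP2-like factors. The family miR168 targets ARGONAUTE1 itself, while miR528, found in monocots, targets copper-binding proteins.

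From day 1 to day 3 the water apices gained miR167a-5p by a fitted 4.14-fold and lost miR160d-5p, miR528a-5p and miR396a-5p. In all, 9 of the 57 miRs with enough counts were differentially expressed (DE) between day 3 and day 1, with 4 up and 5 down. For the more abundant of them most of this change lay between day 1 and day 2. The sequences of the 9 DE miRs are given here because members of miR160 that differ by a single base took different courses. They are written 5' to 3' as in the deposited list, with the seed (bases 2 to 8) in capitals. The 4 that were up were as follows.
miR167a-5p: uGAAGCUGccagcaugaucuga
miR160a-5p: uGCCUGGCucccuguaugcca
miR171c-3p: uGAUUGAGucgugccaauauc
miR171g-3p: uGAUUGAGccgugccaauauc
The 5 that were down were as follows.
miR160d-5p: uGCCUGGCucccugaaugcca
miR528a-5p: uGGAAGGGgcaugcagaggag
miR396a-5p: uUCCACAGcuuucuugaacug
miR396b-5p: uCCACAGGcuuucuugaacug
miR168b-3p: cCCGCCUUgcaccaacugaau

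A sequence shared by several miR genes carries the first of its names, so the count of miR160a-5p includes any read of miR160b-5p or miR160c-5p, and that of miR160d-5p any of miR160e-5p or miR160f-5p. Counted from the 5' end, miR160a-5p and miR160d-5p differed by U15A and had the same seed. One of these sequences was DE up and the other DE down. Likewise, miR171c-3p and miR171g-3p differed by U9C and shared a seed, and both were up. Of the 9 DE sequences, 8 began with U and 8 were 21 bases long, against 35 and 47 of the 57 tested. How reads that lay 1 base from 2 listed sequences were assigned is not given in the sources used here, so the values of close members are less certain than those of whole families. The chromosomal positions of the miR genes were not analysed here.

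The 9 libraries held 39324 to 84737 counts in listed miRs (median 57630), which was 0.315% to 0.587% of their sequencing tags. Of 190 sequences listed, 107 had a count in these libraries, and the 133 that were not tested held 0.0701% of the counts. Sequences first named miR159, a family that targets GAMYB-like factors, took 67.7% to 76.9% of a library. Of all counts, 37.3% lay in miR159c-3p, which also carries the names miR319a-3p and miR319d-3p. The 10 most abundant sequences held 95% of all counts. Total counts overlapped between the days. Replicates of a day differed by more than sampling noise, so none repeated another of the same day. Libraries of different days were not compared in this way. Levels are given as CPM, the read count scaled to a common library size with the TMM factors of edgeR, and a miR was called DE at an adjusted p under 0.05 over the 57 sequences.

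**Figure D1:**
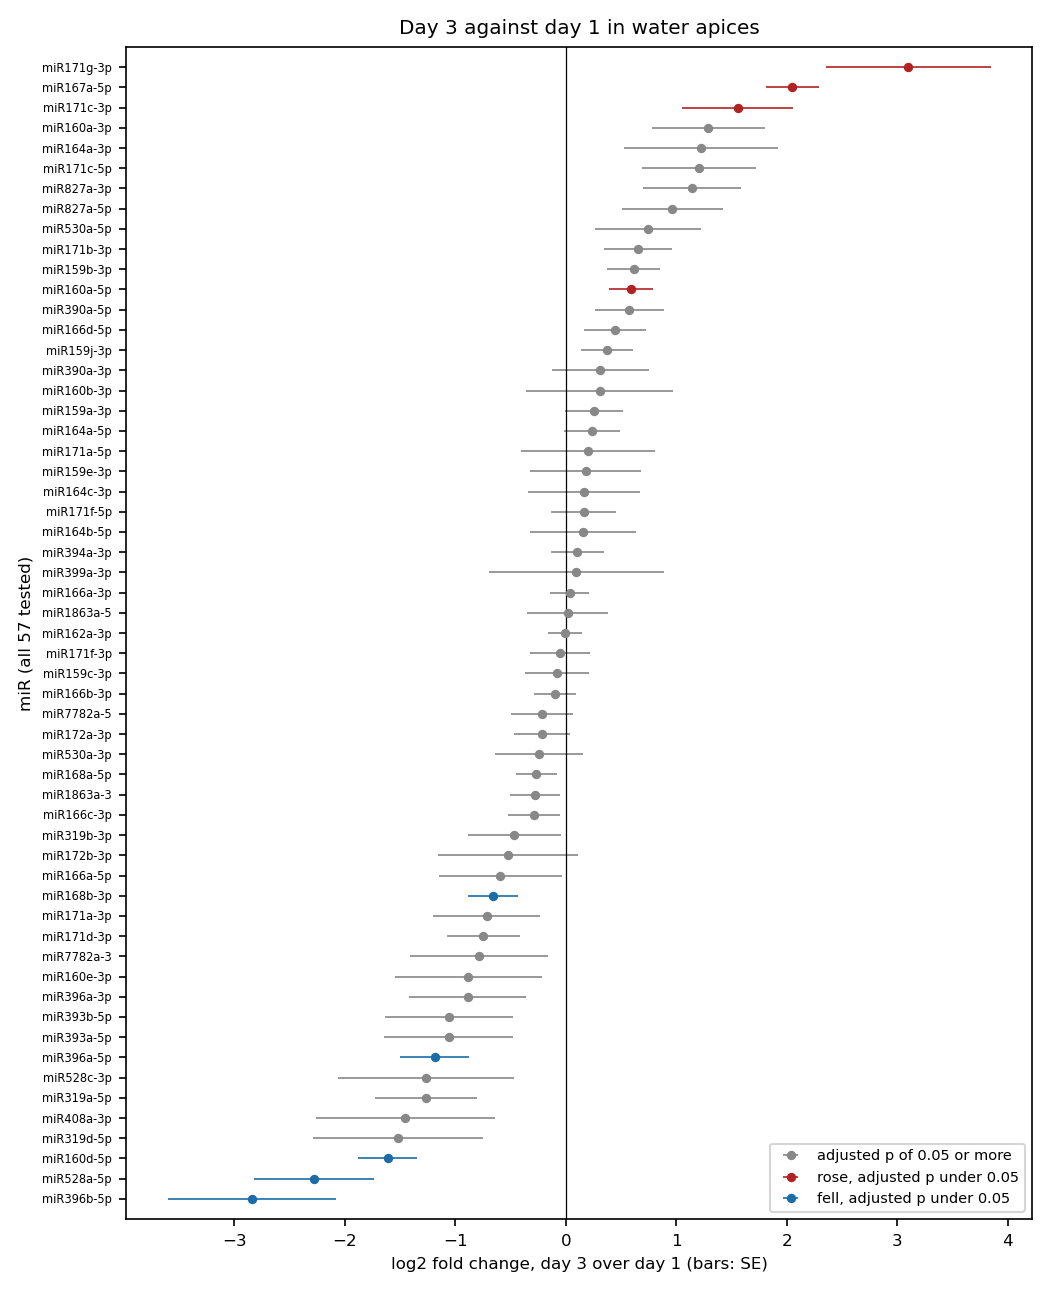
The log2 fold change of day 3 over day 1 (horizontal axis) of each of the 57 tested miRs (vertical axis, in order of the change), with bars for the SE. The 4 DE up are red, the 5 DE down are blue and the rest grey, and the range runs from -2.84 for miR396b-5p to 3.1 for miR171g-3p.

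Among the regulators of auxin response, miR167a-5p had 2687, 4121 and 3367 CPM in the 3 libraries of day 1. It had 10210, 11800 and 13310 CPM on day 2 and 15440, 15500 and 11310 CPM on day 3. Every library of days 2 and 3 lay above every library of day 1, and days 2 and 3 overlapped. The log2 fold change was 2.05 on day 3 (SE 0.24, adjusted p = 2.34e-09) and 1.79 on day 2 (SE 0.23, adjusted p = 7.26e-08), both over day 1. The step from day 2 to day 3 was 0.26 (SE 0.22, adjusted p = 0.751). This miR rose under all 17 alternative settings of the day 3 comparison, which were other scalings, count filters, tools and sets of libraries, a replicate block, and each of the 6 libraries left out.

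The other auxin family, miR160, held both a DE up and a DE down member. In the day 1 libraries, miR160d-5p had 4644, 3705 and 4048 CPM, which fell to 1189, 1157 and 1735 CPM on day 2. It stayed at that level on day 3, with 1495, 1642 and 952 CPM. No library of day 2 or 3 reached the lowest of day 1. The fitted level on day 1 was 3.06 times that on day 3 (log2 fold change -1.61, SE 0.27, adjusted p = 7.55e-06), and the call held under all 17 alternatives.

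Its near-copy, miR160a-5p, had 4031, 3982 and 3556 CPM on day 1. It had 5376, 4508 and 6669 CPM on day 2 and 6988, 6225 and 4225 CPM on day 3. Both later days lay above day 1 without overlap, but by less (log2 fold change of day 3 over day 1 0.59, SE 0.20, adjusted p = 0.035). This rise was near the threshold and was called in 5 of 17 alternatives, with a positive fold change in all of them.

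Since both sequences came from the same libraries, their ratio does not depend on how libraries are scaled. For each read of miR160d-5p there were 0.868, 1.07 and 0.879 reads of miR160a-5p on day 1. On day 2 there were 4.52, 3.9 and 3.85, and on day 3 there were 4.67, 3.79 and 4.44. The day 1 ratios lay below those of both later days. The pair was singled out because its members were DE in opposite directions in these libraries, so the ratio is a description and was not tested. In the 15 water libraries of 6 h and days 4 to 8 the ratio ran from 1.59 to 4.86, also above those of day 1. A low ratio was not seen in water alone. The ethephon libraries of 6 h had 1.36, 1.67 and 0.851, the last below all of water day 1. Those of the later ethephon samplings ran from 2.04 to 5.3. Summed over its members, miR160 in water had 9382, 8142 and 8133 CPM on day 1 and 9218, 9018 and 5764 CPM on day 3. This family total was not DE (log2 fold change -0.10, SE 0.19, adjusted p = 0.781). None of the tested opposite arms of the family was DE, with log2 fold changes of 1.29 for miR160a-3p, 0.31 for miR160b-3p and -0.88 for miR160e-3p.

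**Figure D2:**
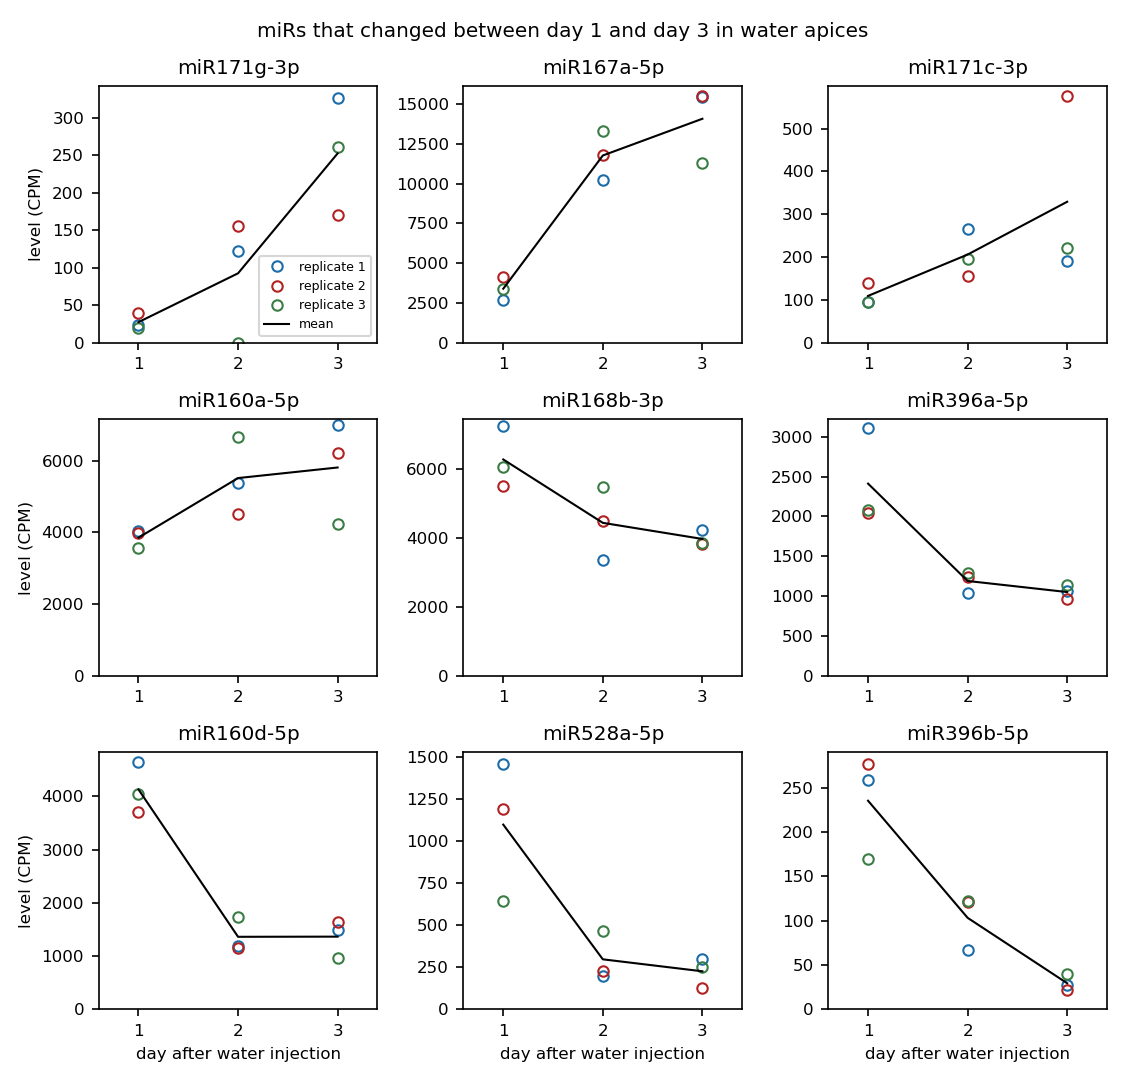
Level in CPM (vertical axis, from 0) of each of the 9 DE miRs, 1 panel each, on day 1, day 2 and day 3 (horizontal axis). Each circle is a library, coloured by replicate number, and the line joins the means. For miR167a-5p, miR160a-5p and miR160d-5p the 3 circles of day 1 lie apart from all circles of days 2 and 3.

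Both DE members of miR171 were of low abundance. The counts of miR171g-3p were 1, 2 and 1 on day 1. They were 11, 9 and 0 on day 2 and 12, 8 and 20 on day 3. Pooled over libraries, 4 reads stood against 40, a scaled ratio of 9.09 (95% exact interval 3.29 to 35.0, for counting error only, without the spread between libraries), and the fitted log2 fold change was 3.1 (SE 0.75, adjusted p = 0.00215). The lone 0 on day 2 left days 1 and 2 overlapping. The call held in all 16 alternatives that kept this miR.

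For miR171c-3p the counts were 4, 7 and 5 on day 1, 24, 9 and 8 on day 2, and 7, 27 and 17 on day 3. The CPM of every day 3 library exceeded those of day 1 (log2 fold change 1.56, SE 0.50, adjusted p = 0.0274). Replicate 2 of day 3 carried much of this, and without it the log2 fold change was 0.92 (adjusted p = 0.308). The call held in 9 of 17 alternatives. The miR171c-5p of the other arm had 170.2 to 416 CPM on day 1 and 299.9 to 924.5 CPM on day 3, and was not DE (log2 fold change 1.2, adjusted p = 0.0958). Against these, miR171d-3p had a log2 fold change of -0.75 (adjusted p = 0.108), and the total of the family, most of it in other members, had one of 0.19 (adjusted p = 0.51).

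Of the miRs that target growth regulating factors, miR396a-5p had 3111, 2041 and 2081 CPM on day 1. It fell to 1033, 1244 and 1295 CPM on day 2 and had 1060, 959.4 and 1135 CPM on day 3. Both later days lay below day 1 without overlap, and the fitted level of day 1 was 2.28 times that of day 3 (log2 fold change -1.19, SE 0.31, adjusted p = 0.00424). Replicate 1 was the highest of day 1. Without it the log2 fold change was -0.97 with an adjusted p of 0.05, and the call was lost, whereas it held in the other 16 alternatives.

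The rarer member miR396b-5p went from 11, 14 and 9 reads on day 1 to 6, 7 and 5 on day 2 and 1, 1 and 3 on day 3. It was the only DE miR whose 3 days all lay apart in CPM, in falling order. The pooled counts of 34 against 5 gave a scaled ratio of day 1 to day 3 of 7.48 (95% exact interval 2.91 to 24.5, for counting error only, without the spread between libraries), and the fitted log2 fold change was -2.84 (SE 0.76, adjusted p = 0.00513). The family total of miR396 fell by 1.24 on the log2 scale (SE 0.29, adjusted p = 0.00126), from 3654, 2655 and 2478 CPM to 1169, 1237 and 1291 CPM. The opposite arm, miR396a-3p, had a log2 fold change of -0.89 (adjusted p = 0.234).

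The miR319 family is grouped with miR396 as regulators of organ growth. The total of the sequences first named miR319, which leaves out the most abundant sequence with a miR319 name, also fell. It had 1273, 1228 and 1154 CPM on day 1 and 407.9, 724.9 and 769.4 CPM on day 3 (log2 fold change -0.91, SE 0.33, adjusted p = 0.044). The total was called in 5 of 17 alternatives and its call was lost when any single library of day 1, or replicate 1 or 2 of day 3, was left out. No single member was DE. The nearest was miR319a-5p, with 542.2, 515.1 and 643.1 CPM on day 1 against 81.57, 234.5 and 339.1 CPM on day 3 (log2 fold change -1.26, SE 0.46, adjusted p = 0.0516). The tested 3p arm in this total, miR319b-3p, had 542.2, 594.3 and 416.1 CPM on day 1 and 326.3, 362.4 and 417.3 CPM on day 3. Its libraries overlapped between these days (log2 fold change -0.47, SE 0.42, adjusted p = 0.445). The sequence left out is named miR159c-3p and also carries the names miR319a-3p and miR319d-3p. It had means of 429800 CPM on day 1 and 406600 CPM on day 3, far above this total. It was not DE (log2 fold change -0.08, SE 0.29, adjusted p = 0.857), so a fall of all miR319 reads was not shown. All 6 tested sequences first named miR319 or miR396 had negative fold changes, against 29 of the 57 tested (50.9%). They take in both arms of each family, so they are not 6 separate regulators. Of these 6, 2 were DE down, against 5 of the 57 (8.77%).

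The copper-linked miR528a-5p had 1461, 1189 and 643.1 CPM on day 1. It had 199.9, 224.5 and 464.2 CPM on day 2, and 299.1, 127.9 and 247.8 CPM on day 3. Even the lowest library of day 1 lay above the highest of the later days. The fall was 2.28 on the log2 scale by day 3 (SE 0.54, adjusted p = 0.00215, a fitted 4.84-fold) and was called under all 17 alternatives. In reads, 156 on day 1 stood against 50 on day 2 and 36 on day 3. The rest of the copper list that was tested was near the count limit. For miR528c-3p, an opposite arm of the miR528 family, the counts were 15, 3 and 1 on day 1 and 1, 2 and 6 on day 3 (log2 fold change -1.26, adjusted p = 0.259). Without replicate 1 of day 1 its log2 fold change was 0.48. The other, miR408a-3p, had 9, 1 and 8 reads on day 1 and 4, 0 and 3 on day 3 (log2 fold change -1.45, adjusted p = 0.205). The copper list had 1 DE down of 3 tested, against 8.77% of all 57, with a median log2 fold change of -1.45 against -0.01, and a single member describes no list.

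In the small RNA machinery list, miR168b-3p, from the opposite arm of the ARGONAUTE1 regulator, had 7260, 5527 and 6072 CPM on day 1. It had 4242, 3816 and 3873 CPM on day 3, below all of day 1 (log2 fold change -0.66, SE 0.22, adjusted p = 0.035). This call held in 8 of 17 alternatives. The regulator arm itself, miR168a-5p, had 5987, 6498 and 6280 CPM on day 1 and 5710, 4562 and 5334 CPM on day 3, and was not DE (log2 fold change -0.27, SE 0.18, adjusted p = 0.287). The family total of miR168 fell by 0.45 on the log2 scale (SE 0.15, adjusted p = 0.0269) and was called in 9 of 17. For miR162a-3p, the regulator of DICER-LIKE1, the log2 fold change was -0.01 (SE 0.15, adjusted p = 0.97). That list had 1 DE down of 3 tested, against 8.77% of all 57, at a median of -0.27 against -0.01.

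The phosphate-linked miR827a-3p was higher on day 3 in every library, with 4160, 5074 and 8255 CPM against 3324, 3427 and 1229 CPM, but it was not DE (log2 fold change 1.14, SE 0.45, adjusted p = 0.0672). It was called in 6 of 17 alternatives. The other arm, miR827a-5p, had 400.7, 455.7 and 151.3 CPM on day 1 and 652.6, 767.5 and 547.7 CPM on day 3 (log2 fold change 0.96, SE 0.46, adjusted p = 0.134). Replicate 3 was the lowest of day 1 for both arms.

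The step from day 1 to day 2 held 5 DE miRs, 1 up and 4 down (8.77% of those tested, with 26.3% at an unadjusted p under 0.05). The comparison shares the libraries of day 1 with the day 3 comparison, so the values are not independent. Besides miR167a-5p, these were miR160d-5p (log2 fold change -1.61, adjusted p = 6.5e-06), miR528a-5p (-1.95, adjusted p = 0.0101) and miR396a-5p (-1.02, adjusted p = 0.0231). The last was miR1863a-3, with 6034, 4240 and 5220 CPM on day 1, 2166, 3351 and 3713 CPM on day 2 and 5166, 3944 and 3691 CPM on day 3. It was lower on day 2 (log2 fold change -0.75, SE 0.23, adjusted p = 0.0235) and overlapped with day 1 again on day 3. The number of DE miRs in this step was 2 without replicate 1 of day 1 or without replicate 2 of day 2, and 3 without replicate 1 of day 2. Each of these removals cost miR528a-5p, miR396a-5p and miR1863a-3 their calls, while miR167a-5p and miR160d-5p kept theirs.

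Between day 2 and day 3 edgeR called 0 DE miRs, with 8 at an unadjusted p under 0.05. DESeq2 also called 0 (10 unadjusted), as did limma-voom (7 unadjusted). Of the miRs DE by day 3, miR160d-5p had a log2 fold change of 0.00 in this step (SE 0.27), miR396a-5p -0.17 (SE 0.31) and miR528a-5p -0.32 (SE 0.60). The low-count members had larger values in this step, 1.27 for miR171g-3p (SE 0.56) and -1.60 for miR396b-5p (SE 0.85). When replicate 3 of day 3 was left out, 2 miRs were called, namely miR166d-5p and miR7782a-3. A joint F test over the 3 days called 6 miRs (10.5%), all among the 9 DE by day 3. They were miR167a-5p, miR160d-5p, miR528a-5p, miR396a-5p, miR171g-3p and miR396b-5p.

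**Figure D3:**
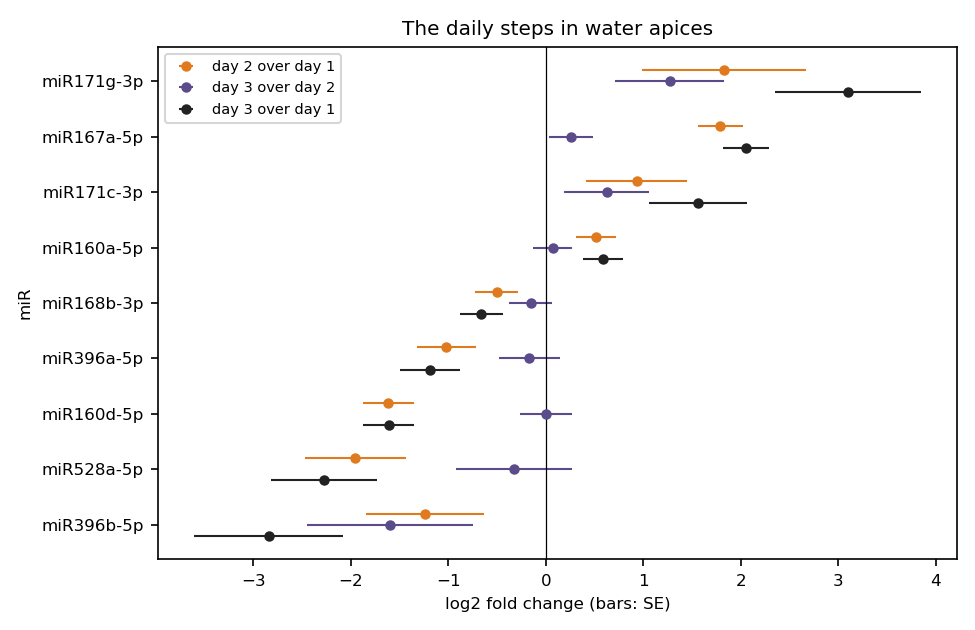
The log2 fold change (horizontal axis) of each of the 9 miRs DE between day 3 and day 1, for day 2 over day 1, day 3 over day 2 and day 3 over day 1. Bars are SE. The values of day 3 over day 2 lie near 0 for miR160d-5p, at 0.00, and for miR167a-5p, at 0.26, while the other comparisons lie far from 0.

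As a background to the libraries that did not overlap, 17 of the 57 tested miRs (29.8%) had day 3 libraries all above or all below those of day 1. For day 2 against day 1 there were 20 (35.1%, of which most were below, 24.6% of the 57) and for day 3 against day 2 there were 5 (8.77%). Of the 23 families tested as totals, 5 were DE between day 3 and day 1 (21.7%, with 30.4% at an unadjusted p under 0.05). These were miR167 up and miR396, miR528, miR168 and miR319 (without miR159c-3p) down. The miR167 total rose by a log2 fold change of 2.01 (SE 0.23, adjusted p = 3.51e-09), and that of miR528 fell by 2.13 (SE 0.55, adjusted p = 0.00317). A few rare families could be tested only as totals. Of these, miR169, which targets NF-YA factors, had 23.57, 39.62 and 94.57 CPM on day 1 and 244.7, 85.28 and 195.6 CPM on day 3 (log2 fold change 1.64, SE 0.73, adjusted p = 0.103).

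Set by function, the auxin list (miR160, miR167, miR390 and miR393) had 2 DE up and 1 DE down of 10 tested. Within this list, the sequence of miR393b-5p lies inside that of miR393a-5p, and they had the same count in 47 of 48 libraries, so their values are not independent. The list of boundary, meristem and polarity miRs had 2 DE up of 19, both of miR171, with a median log2 fold change of 0.16. The MYB list had 0 DE of 5 and the phosphate and sulfate list 0 of 3. Over all 57 tested, 4 were DE up (7.02%) and the median was -0.01.

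The miRs of vegetative age and phase change were mostly below the count limit. In Arabidopsis, miR156 keeps plants juvenile and miR172 promotes the adult phase and flowering. None of the miR156 sequences was tested. The most frequent of them, miR156a-3p, had 5 reads in the 3 libraries of day 1, 5 on day 2 and 6 on day 3, and miR156a-5p had 4, 2 and 4. The related miR535a-5p had 11, 11 and 12 reads. Of miR172, miR172a-3p had 1768, 1149 and 1683 CPM on day 1, 910.8, 1520 and 1050 CPM on day 2 and 978.9, 1215 and 1708 CPM on day 3. The days overlapped and it was not DE (log2 fold change of day 3 over day 1 -0.22, SE 0.25, adjusted p = 0.586). Its rarer form miR172b-3p had 3 to 10 reads a library on day 1 and 2 to 7 on day 3 (log2 fold change -0.52, SE 0.64, adjusted p = 0.592). The age and phase list thus had 0 DE of 2 tested, at a median of -0.37.

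Most of the abundant miRs were not DE. The leading sequence, miR159c-3p, had 332100 to 500200 CPM on day 1 and 297700 to 478200 CPM on day 3 (log2 fold change -0.08, SE 0.29). For miR166b-3p, which targets the class III homeodomain-leucine zipper factors of leaf polarity, the ranges were 113600 to 122300 CPM and 101000 to 121000 CPM (log2 fold change -0.10, SE 0.19). Among the 10 most abundant sequences miR167a-5p was DE and the other 9 were not. Of those, miR159b-3p lay above day 1 in every day 3 library (log2 fold change 0.62, SE 0.24, adjusted p = 0.0672). Its sequence of 20 bases lies whole inside the 21 bases of miR159a-3p, also among the 10. For miR159a-3p the days overlapped (log2 fold change 0.25, SE 0.26, adjusted p = 0.526). The 3 libraries of a day could lie far apart, as in miR530a-5p, with 2766, 8826 and 20840 CPM on day 2.

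Over all 8 water samplings from 6 h to day 8, the mean of day 1 was the lowest or highest for 12 of the 57 tested miRs (21.1%) and that of day 3 for 25 (43.9%). Of the 9 miRs DE between these days it was so for 5 and 7, but they were chosen for a difference between the same libraries, so their share is only a description. The day 1 mean was the lowest of the 8 for miR167a-5p (3392 CPM), miR160a-5p (3856 CPM) and miR171g-3p (27.4 CPM). It was the highest for miR160d-5p (4132 CPM), miR528a-5p (1098 CPM) and miR1863a-3 (5165 CPM). At 6 h miR167a-5p was at 3544 CPM, near day 1, and after its day 3 high of 14080 CPM it was at 11630 CPM on day 4 and 4576 CPM on day 8. In contrast, miR160d-5p had 2212 CPM at 6 h and stayed between 1212 and 1696 CPM from day 2 to day 8, so that the high level was seen on day 1 alone. The mean of miR396a-5p was still low on day 4, at 928.4 CPM, and was 2170 CPM on day 5, close to day 1. Processing of the 6 h plants ended later in the day than that of the daily samplings, and these course values are given without a test.

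**Figure D4:**
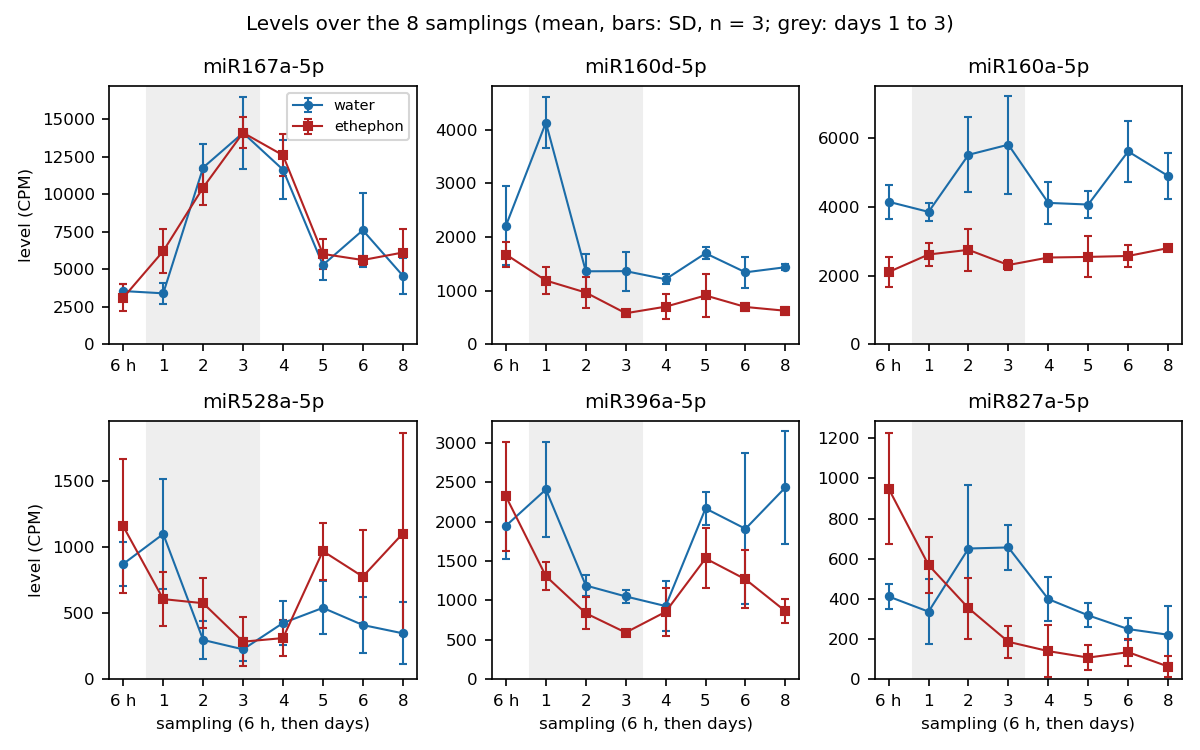
Mean level in CPM (vertical axis, from 0) of 6 miRs at the 8 samplings from 6 h to day 8 (horizontal axis) in water and in ethephon apices, with bars for the SD of 3 libraries and days 1 to 3 shaded grey. In water, day 3 has the highest mean of miR167a-5p, at 14080 CPM, and day 1 the highest of miR160d-5p, at 4132 CPM.

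The ethephon apices of day 1 and day 3 give a comparison over the same days with none of these libraries. In them 9 miRs were DE between day 3 and day 1 (15.8%, the same share as in water), and 4 of the 9 were also among the 9 of water. These were miR167a-5p (log2 fold change 1.18 in ethephon), miR171c-3p (1.56), miR160d-5p (-1.03) and miR396a-5p (-1.14), each in the same direction. The ethephon libraries had 4719, 6195 and 7701 CPM of miR167a-5p on day 1 and 12900 to 14760 CPM on day 3. Thus the day 3 levels were close (means of 14080 CPM in water and 14090 CPM in ethephon), and the day 1 libraries of water lay below those of ethephon. For miR160d-5p the ethephon libraries of day 1, at 894.5 to 1351 CPM, lay below all those of water on that day.

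A direct test of whether the change from day 1 to day 3 differed between the treatments called 1 of 57 miRs (1.75%, with 7 at an unadjusted p under 0.05). This was miR827a-5p, which had 415.4 to 687.1 CPM on day 1 and 96.54 to 243.2 CPM on day 3 in ethephon. Its log2 fold change was 0.96 in water and -1.59 in ethephon (difference -2.55, SE 0.65, adjusted p = 0.0154). Without replicate 3 of water day 1 the difference was -2.19 and its adjusted p 0.109. Without replicate 2 of water day 3, replicate 3 of ethephon day 1 or replicate 2 of ethephon day 3, the adjusted p was 0.0555, 0.054 and 0.096. For miR167a-5p the difference of -0.86 did not pass (adjusted p = 0.161), nor did those of miR160a-5p at -0.76 and miR827a-3p at -1.65 (adjusted p = 0.161 for both). For miR396a-5p the difference was 0.05 (SE 0.45). For the low-count miR171c-3p it was 0.00, from log2 fold changes with an SE of 0.50 in water and 0.46 in ethephon.

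**Figure D5:**
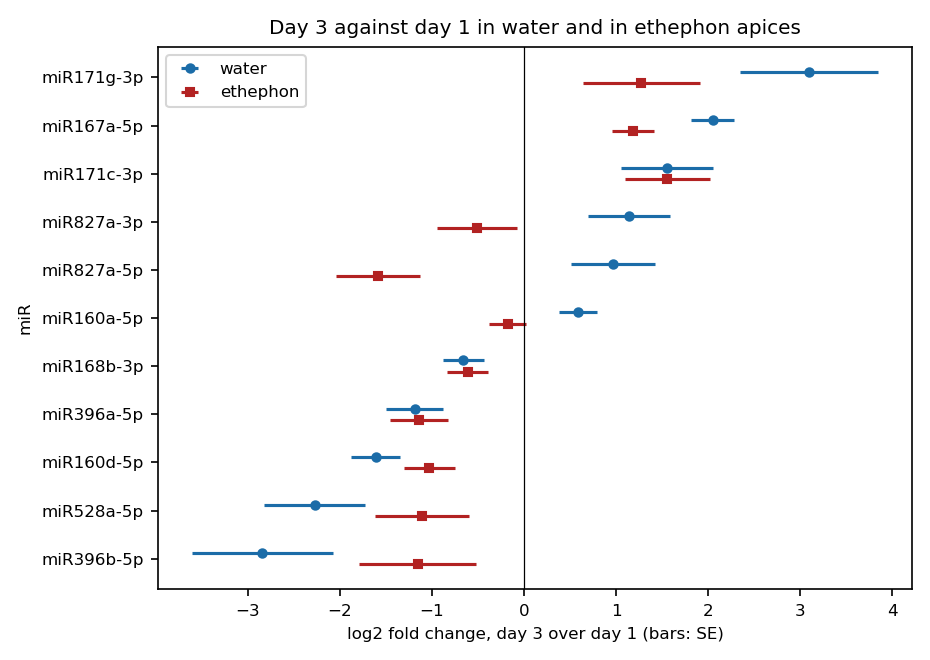
The log2 fold change of day 3 over day 1 (horizontal axis) in water apices and in ethephon apices for the 9 miRs DE in water and for both arms of miR827a. Bars are SE. The arms of miR827a lie on opposite sides of 0 in the 2 treatments, at 0.96 and -1.59 for miR827a-5p, which was the only DE difference.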

How the data were processed

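Small RNA was sequenced from 48 pooled apex libraries, of which the 9 water libraries of days 1 to 3 are described. The authors cut adapters, collapsed identical reads and aligned the unique sequences to mature miRs of miRBase, and they deposited raw counts for 190 sequences. Beside them stands a score made by the authors, the count per 10000000 sequencing tags rounded to whole numbers, from which the tags of each library were recovered. A deposited list pairs sequences with 253 names. The aligner and its mismatch setting were not given in the sources used here. No annotation gave positions of the miR genes.

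Tests used edgeR 4.0.16 in R 4.3.3. Its filterByExpr function (minimum count 10, minimum total count 15) kept 57 sequences. A quasi-likelihood model with TMM factors and a mean for each of 16 groups was fitted to all 48 libraries (common biological coefficient of variation 0.246), with Benjamini-Hochberg adjustment over the 57 sequences or 23 families. The SE was taken from the log2 fold change and its F statistic (size of the change over the square root of F). A count of 3 in a library corresponds to 35.4 to 76.3 CPM before TMM factors. Alternatives were other scalings and filters, DESeq2 1.42.0, limma-voom (limma 3.58.1), fewer libraries in the fit, a replicate block and each library left out. Scripts were tested on simulated data.

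Named miRs were those DE in a water comparison or in the difference between treatments, the 8 of smallest p in each direction, the 10 most abundant, the members of miR156, miR160 and miR172, and up to 4 of each list. miR167a-3p, miR169, miR319b-3p, miR7782a-3, miR393a-5p, miR393b-5p, miR396a-3p and miR535a-5p were named after their values were seen. The libraries, lists and rule were chosen with earlier results of these data known. The lists were age and phase (miR535, miR529, miR172, miR157, miR156), auxin, small RNA machinery (miR162, miR168, miR403), copper (miR408, miR528, miR397, miR398, miR857), phosphate and sulfate (miR827, miR399, miR395), MYB (miR858, miR828, miR159), TCP and GRF (miR396, miR319), and boundary, meristem and polarity (miR171, miR166, miR165, miR164, miR394).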

Additional observations from a re-analysis of the deposited data

Results flagged for a closer look

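The change of miR827a-5p from day 1 to day 3 differed between the treatments by the test of the difference itself. It was 0.96 on the log2 scale in water and -1.59 in ethephon, a difference of -2.55 (edgeR, adjusted p = 0.0154). Over the alternatives that kept it, the adjusted p ran from 0.00119 to 0.273 and the difference was negative in all of them. The cause of the difference was not tested. No group of water days 1 to 3 had the 4 libraries needed to look for a library that stood apart.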

How the results depend on the processing

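Of the 9 miRs DE between day 3 and day 1, miR167a-5p, miR160d-5p, miR528a-5p, miR171g-3p and miR396b-5p were DE under every alternative that kept them, and miR396a-5p in 16 of 17. The calls of miR171c-3p (9 of 17), miR168b-3p (8 of 17) and miR160a-5p (5 of 17) were near the threshold, and their direction held throughout. DESeq2 called 14 miRs (8 up and 6 down), the size factors of DESeq2 in edgeR gave 8 up and 5 down, the total count without TMM factors and the scale of all sequencing tags each 2 up and 4 down, and TMM without the most abundant sequence 3 up and 6 down. With a library left out the number was 5 to 12, lowest without water day 1 replicate 1 and highest without water day 3 replicate 3. For day 2 against day 1 DESeq2 called 8 and the scale of all tags 3, and 2 to 5 with a library left out. On these scales the median of all miRs moved by 0.146 with the size factors of DESeq2 and 0.241 with all tags. For day 3 against day 2 the scale of all tags moved it by -0.242, and 0 to 2 miRs were DE with a library left out. The joint test of the 3 days called 4 to 13, highest without water day 3 replicate 3. The number of families DE was 3 on the scale of all tags and 3 to 5 with a library left out, being 3 without water day 1 replicate 1, water day 1 replicate 3 or water day 3 replicate 2. The difference between treatments had 0 DE miRs without TMM factors and on all tags (median of all miRs moved by 0.272 and 0.284), then 3 without the count filter, and 0 to 1 with a library left out. The cause of these changes was not tested.

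The fold change of day 3 over day 1 turned sign for a few miRs that were never DE. It was 0.0633 for miR162a-3p with the size factors of DESeq2, 0.0637 with DESeq2, 0.0326 on all tags, 0.0828 with the 24 water libraries, 0.0547 with the 9, and -0.171 to 0.0831 with a library left out. For miR166a-3p it was -0.091 without TMM factors, -0.0027 on all tags, -0.0704 with TMM without the most abundant sequence, -0.0117 without the filter and -0.098 with a minimum count of 30. With a library left out the ranges were -0.0968 to 0.0882 for miR166a-3p, -0.24 to 0.10 for miR159c-3p, -0.40 to 0.38 for miR159e-3p, -0.14 to 0.68 for miR160b-3p, -0.87 to 0.16 for miR172b-3p, -0.38 to 0.59 for miR399a-3p and -1.94 to 0.48 for miR528c-3p. Of 584 values of named miRs under the alternatives, 30 lost a call, 21 gained one and 22 turned sign.

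The labels do not say whether a replicate number marks a field replication. Deviations of same-numbered libraries of day 1 and day 3 correlated at -0.14, 0.05 and 0.06, and so few correlations cannot decide it. The main fit therefore used no pairing. With the replicate number as a block, 9 miRs were DE for day 3 over day 1, 5 for day 2 over day 1, 0 for day 3 over day 2, 6 in the joint test, 1 in the difference between treatments and 4 families, with the call of the miR319 total lost. Depth limits the rare miRs, since 50 of the 133 sequences not tested had at most 42 counts over the 9 libraries and the other 83 had 0.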
